A study of Mus musculus with 16 samples.

Results

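The 10 genes followed here are markers of inhibitory interneurons: Gad1, Gad2, Slc32a1, Pvalb, Sst, Vip, Npy, Cck, Reln and Calb2. They were taken by symbol from the series' gene table and are 10 of its 55487 genes. All 10 were among the 18565 genes that passed the filter on low counts. The 16 libraries were made from right hippocampi of female mice, whose age is 40 weeks by one label and 9.5 months by another. TCKO mice (replicates 2, 3, 4 and 5) carried the PS19 transgene and lacked Ch25h, which encodes cholesterol 25-hydroxylase. T mice (replicates 2, 3, 4 and 5) carried the PS19 transgene with Ch25h intact. CKO mice (replicates 1, 2, 4 and 5) lacked Ch25h without the transgene, and WT mice (replicates 1, 2, 4 and 5) had neither change. PS19 is a model of tauopathy in which the PrP promoter drives a human tau with the P301S mutation of frontotemporal dementia, so the transgene is not limited to any interneuron class. The labels do not say whether the animals were littermates.

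Inhibitory interneurons release GABA, which they make from glutamate with the enzymes GAD67 and GAD65, and load it into vesicles with the transporter VGAT. Hippocampal interneurons are divided into classes by the proteins and peptides they hold: parvalbumin in fast-spiking cells that contact the soma and axon of pyramidal cells, somatostatin in dendrite-targeting cells, and VIP or calretinin in cells that often contact other interneurons. Several of these genes are not limited to interneurons. Cck is also transcribed in pyramidal cells, Reln also in Cajal-Retzius cells, and Calb2 also in mouse mossy cells and young granule cells. In bulk tissue fewer cells of a type and less RNA per cell cannot be told apart.

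Promoters of the 4 peptide genes are shown because Sst and Vip are textbook targets of the cAMP-response element, whose palindrome is TGACGTCA and whose 5-base part is TGACG. RefSeq windows on GRCm38.p6 (250 bases before to 50 after the start) were at hand for 9 of the 10 genes. Capitals mark the motif on either strand. The Vip, Cck and Npy lines hold the 100 bases before the start. The Sst line is cut to 30 bases, since the GENCODE M21 gene begins 114 bases before the RefSeq start.
Sst, chr16:23890874-23890903, minus strand: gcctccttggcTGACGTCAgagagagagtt
Vip, chr10:5639118-5639217, plus strand: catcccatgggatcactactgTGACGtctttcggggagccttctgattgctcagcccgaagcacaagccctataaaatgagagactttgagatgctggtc
Cck, chr9:121495695-121495794, minus strand: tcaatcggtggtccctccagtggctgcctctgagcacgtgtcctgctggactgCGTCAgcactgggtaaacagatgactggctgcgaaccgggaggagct
Npy, chr6:49822610-49822709, plus strand: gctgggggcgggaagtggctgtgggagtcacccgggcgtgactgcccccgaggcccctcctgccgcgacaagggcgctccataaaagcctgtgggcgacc

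The whole palindrome stood in the Sst window, beginning 48 bases before the start, and in no window of the other 8 genes. It stood in 588 of the 32851 windows in the table (1.79%). The 5-base part, which the palindrome contains, was found on the gene strand of Vip from position -79, on the other strand of Cck from -47 and of Gad2 from -33, and in 20.8% of all windows. These letter matches are a description and were not tied to any change below. On GRCm38 Sst spans chr16:23889573-23890958 and Calb2 spans chr8:110137502-110168210, both on the minus strand. Gad1 spans chr2:70553072-70602014, Gad2 spans chr2:22622205-22693874 and Slc32a1 spans chr2:158610767-158615748, all on the plus strand. Gad1 overlaps the antisense gene Gad1os and Slc32a1 overlaps the antisense gene Gm14205. The sources used here do not say whether the counting used strand, so reads of such partners cannot be told apart, although Gad1os held at most 12 estimated reads and Gm14205 at most 1.52 in any library.

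Library totals were 24057188 to 31359268 estimated reads in TCKO, 26247317 to 32295230 in T, 15064309 to 26417541 in CKO and 28878646 to 34348284 in WT. Ch25h had 0 to 1 reads in TCKO, 132.93 to 299.64 in T, 0 to 2 in CKO and 18 to 39.68 in WT libraries. Mapt, the tau gene, and Prnp, the gene of the PrP promoter, were higher in T than in WT by log2 1.15 ± 0.11 and 1.17 ± 0.13 (edgeR quasi-likelihood adjusted p = 1.92e-06 and 7.12e-06). They were higher in TCKO than in CKO by 1.395 ± 0.106 and 1.28 ± 0.13 (edgeR adjusted p = 7.04e-06 and 0.000203). Mapt was also higher in TCKO than in T by 0.36 ± 0.10 (edgeR adjusted p = 0.0321), while Prnp differed by 0.21 ± 0.13 (adjusted p = 0.287). The hippocampal list of mossy and granule cell genes was present in every library, with a summed level of 199.7 to 349.5 CPM in TCKO, 167.8 to 248.1 in T, 251.3 to 328.1 in CKO and 253.7 to 322.5 in WT. T 4 and WT 1 stood apart with summed choroid plexus levels of 7323 and 7048 CPM, against at most 407.2 CPM in the other 14 libraries. T 2 held the highest summed thalamus level, 529.6 CPM. Where leaving out T 4 with WT 1 ended a call on a named gene, the adjusted p without them is given beside it. The labels do not say whether each library came from a separate animal, so the p-values cover the spread among libraries, which may be technical.

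Per unit of transcript length, in the TPM deposited by the authors, the peptide genes Sst, Cck and Npy led. Over the 16 libraries Sst averaged 649.8 ± 188 TPM (SD), Cck 491.7 ± 120 TPM and Npy 331.7 ± 85 TPM. Gad1, which encodes GAD67, averaged 142.9 ± 35.2 TPM, and Gad2, which encodes GAD65, averaged 32.45 ± 13.9 TPM. Pvalb averaged 67.89 ± 14.9 TPM and Calb2 63.68 ± 60.7 TPM, a pair whose ranges overlapped. Vip (13.25 ± 5.84 TPM), Reln (8.849 ± 2.07 TPM) and Slc32a1, which encodes VGAT (3.873 ± 1.81 TPM), were lowest. Neighbours in this order all overlapped in their ranges over libraries. The fewest reads behind a value were 57 for Slc32a1 and 115 for Vip, while Gad1 had 4256 or more in every library.

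Across genotypes, 1 of the 10 markers passed an adjusted p of 0.05 in any comparison: Sst, which was lower in T than in WT hippocampus. That call held under 23 of 27 alternatives. Some of these left out only 1 CKO or TCKO library, which keeps the T and WT libraries as they were and says little about the call. It was lost without WT 5, without T 4 and WT 1, without WT 1 and WT 5, and in a fit of the 8 compared libraries only. Levels below are CPM scaled by TMM, and fold changes are from edgeR's quasi-likelihood fit over all 16 libraries with Benjamini-Hochberg adjustment over the 18565 genes. In T against WT, 0 markers were higher and 1 was lower, against 13% of all genes tested higher and 11.2% lower. In CKO against WT, 0 markers were higher and 0 lower, against 0% and 0.0108% of all genes. In TCKO against T, 0 were higher and 0 lower, against 4.81% and 8.05% of all genes. In TCKO against CKO, 0 were higher and 0 lower, against 0.35% and 0.189% of all genes. In the interaction, which asks whether the difference of TCKO from CKO departs from that of T from WT, 0 were higher and 0 lower, against 0.695% and 2.45% of all genes. At an unadjusted p under 0.05 the counts of markers were 3, 1, 4, 1 and 3 of 10 in the same order of comparisons, against 35.7%, 11.3%, 28%, 17.5% and 18.8% of all genes. DESeq2 called 1, 0, 1, 0 and 1 markers, against 26.8%, 0.593%, 16.4%, 4.12% and 6.73% of all genes. The counts by limma voom were 1, 0, 0, 0 and 0, against 25.7%, 0.00539%, 13.4%, 0.318% and 2.93%. Each genotype enters 2 of the 4 pairwise comparisons, so these share libraries.

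**Figure D1:**
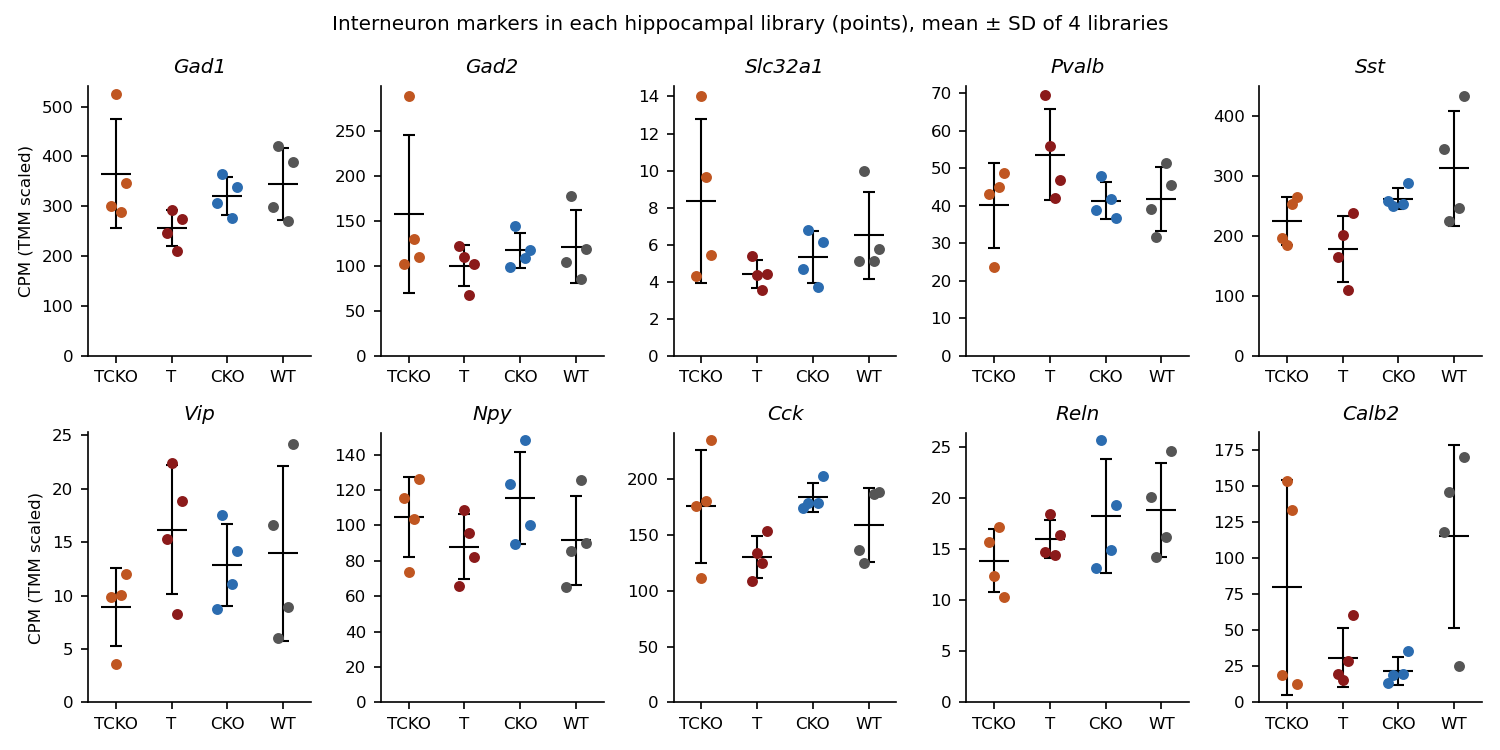
CPM (TMM scaled) of each marker in each library (points), by genotype, with the mean and SD of 4 libraries (bars). Sst lies lowest in T at 110.1 to 238.7 CPM, against 225.1 to 433.5 CPM in WT, and Calb2 splits into libraries above 100 CPM and libraries at or below 60.32 CPM.

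No marker's 4 libraries lay wholly above or below the 4 of the other group in CPM. This held for T against WT, where 25.1% of all genes tested separated, for CKO against WT (8.94%), for TCKO against T (14.8%) and for TCKO against CKO (10.3%). In TPM 1 of 10 separated in CKO against WT, where 12.4% of all genes did, and 1 of 10 in TCKO against T, where 15% did. In TPM 0 of 10 separated in T against WT (22.6% of all genes) and 0 of 10 in TCKO against CKO (9.94%). Cck had 553.3, 577.9, 561.8 and 663.1 TPM in CKO, against 393, 354.9, 523.8 and 536.3 TPM in WT. Gad1 had 133.2, 236.1, 131.5 and 155.3 TPM in TCKO, against 103.3, 129.7, 88.79 and 120.6 TPM in T.

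The GABA-synthesis and loading genes come first. Gad1 had 301.3, 525.6, 288.3 and 347.1 CPM in TCKO libraries 2, 3, 4 and 5, and 246.8, 292, 211.3 and 275.4 CPM in T libraries 2, 3, 4 and 5. It had 306.3, 364.1, 276.9 and 338.9 CPM in CKO libraries 1, 2, 4 and 5, and 298.4, 420.9, 270.7 and 388.5 CPM in WT libraries 1, 2, 4 and 5. TCKO 3 was the highest of the 16 libraries and T 4 the lowest, and the T range of 211.3 to 292 overlapped the low end of every other genotype. T was below WT by a log2 difference of -0.43 ± 0.18 (SE, 95% interval -0.81 to -0.04, edgeR adjusted p = 0.101), which missed the threshold. In the fit blocked by replicate number, T against WT was -0.58 ± 0.12 and passed (adjusted p = 0.0047), so its call depends on the pairing of libraries by number. TCKO stood above T by log2 0.51 ± 0.18 (interval 0.13 to 0.90, adjusted p = 0.0748), which missed it too, and CKO differed from WT by -0.10 ± 0.18 (adjusted p = 0.876).

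Gad2 followed the same order of libraries at its ends. It had 101.9, 288.7, 130.2 and 110 CPM in TCKO, 122.1, 109.3, 67.88 and 102.3 CPM in T, 98.73, 144, 108.6 and 117.2 CPM in CKO and 103.9, 178.1, 85.18 and 118.4 CPM in WT. TCKO 3 and WT 2 were the 2 highest libraries and T 4 the lowest, TCKO 4 lay above every T library, and TCKO 2 and TCKO 5 lay within the T range. The fitted difference was 0.65 ± 0.30 for TCKO against T (adjusted p = 0.162) and -0.27 ± 0.30 for T against WT (adjusted p = 0.554). Without TCKO 3 and WT 2, a pair chosen after the values were seen, TCKO against T was 0.14 (adjusted p = 0.692).

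Slc32a1, the vesicular loader, had 4.337, 14.04, 9.638 and 5.423 CPM in TCKO and 5.413, 4.361, 3.551 and 4.433 CPM in T. CKO libraries had 4.67, 6.81, 3.709 and 6.172 CPM, and WT libraries 5.101, 9.965, 5.148 and 5.79 CPM. TCKO 3 again led, followed by WT 2 and TCKO 4, and TCKO 2 lay within the T range. TCKO against T gave log2 0.92 ± 0.33 (interval 0.22 to 1.61, adjusted p = 0.0767) and T against WT -0.55 ± 0.33 (adjusted p = 0.247). The interaction was 1.20 ± 0.46 (adjusted p = 0.17). DESeq2 called TCKO against T (log2 0.90, adjusted p = 0.0421), as did edgeR without TCKO 2 (1.13 ± 0.31, adjusted p = 0.0334).

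These 3 genes moved together from library to library. Over the 16 libraries, log2 CPM of Gad2 and Slc32a1 had a Pearson r of 0.886 and a Spearman rho of 0.847 (permutation p = 3e-05 and 6e-05, adjusted over 3 pairs 6e-05 and 0.00018). Gad1 and Gad2 had r 0.86 and rho 0.626 (permutation p = 4e-05 and 0.0102, adjusted 6e-05 and 0.0102). Gad1 and Slc32a1 had r 0.773 and rho 0.671 (permutation p = 0.00052 and 0.00543, adjusted 0.00052 and 0.00814). The permutations shuffled libraries across genotypes, so these p-values do not set genotype differences apart from variation within a genotype. Taken as deviations from the genotype means, with no permutation run, the 3 values of r were 0.876, 0.871 and 0.705 in that order of pairs. Without the 2 libraries farthest from the median of the first gene of each pair (TCKO 3 and WT 2, then TCKO 3 and T 4 for both Gad1 pairs), they were 0.698, 0.631 and 0.534.

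**Figure D2:**
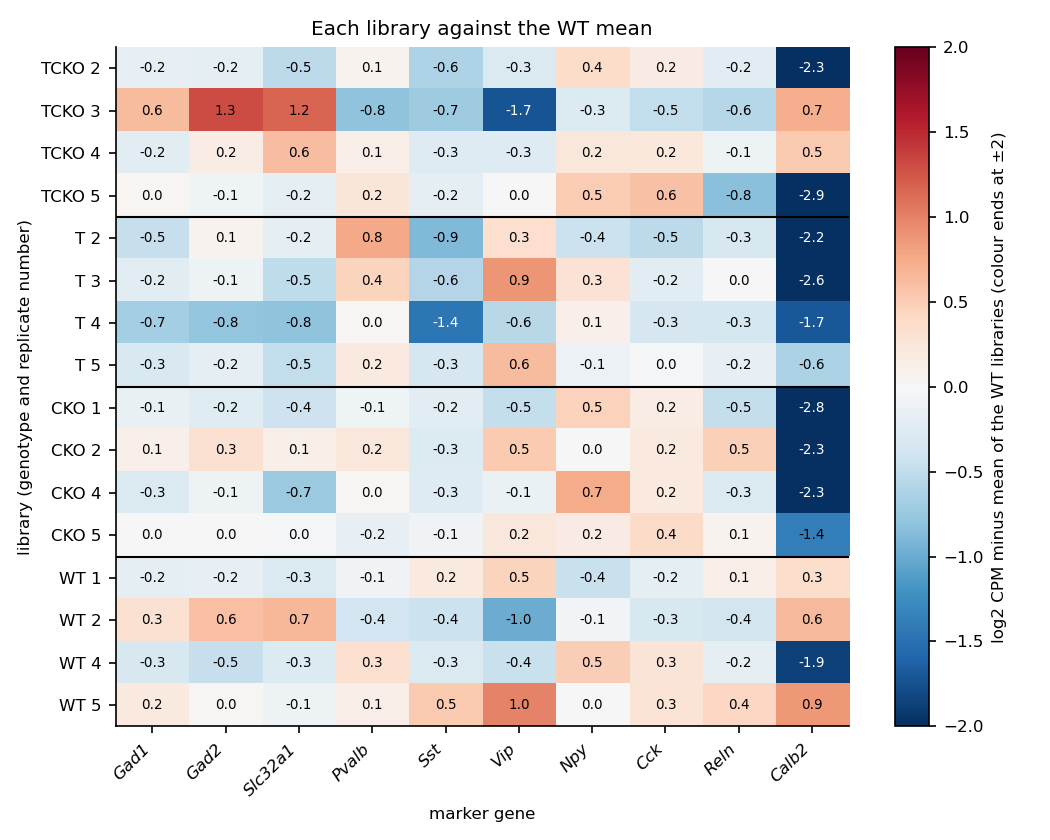
log2 CPM of each marker (columns) in each library (rows, TCKO at the top and WT at the bottom) minus the mean of the WT libraries. Gad1, Gad2 and Slc32a1 are highest in TCKO 3 and next highest in WT 2, while Vip and Pvalb are lowest in TCKO 3.

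The 5 tested genes most like the mean z-score of Gad1, Gad2 and Slc32a1 were Smarca2, Gng4, Ankrd63, Chst10 and Rtl8a. Smarca2 encodes a chromatin-remodelling ATPase and Gng4 a G protein gamma subunit. Their Pearson r with that score over the 16 libraries was 0.944, 0.936, 0.93, 0.906 and 0.901, chosen as the highest among 18555 genes. Without TCKO 3 and WT 2 it was 0.81, 0.832, 0.833, 0.83 and 0.777. Gng4 had 39.7 CPM in TCKO 3, 29.54 CPM in WT 2 and 17.9 CPM in TCKO 4, against 4.574 to 12.68 CPM in the other 13 libraries. Of the 11 interneuron transcription factors tested, TCKO 3 held the highest level of the 16 libraries for 5 and the lowest for 2. Dlx5, a homeobox factor of the interneuron lineage chosen here after its values were seen, had 20.06 CPM in TCKO 3 and 12.93 CPM in WT 2, against at most 9.003 CPM elsewhere. Maf and Satb1, both factors of medial-ganglionic interneurons, were lowest in TCKO 3 at 7.794 and 20.88 CPM. The part of these libraries' makeup in the marker values was not tested.

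Among the peptides, Sst, the gene with the whole cAMP-response palindrome, had 195.9, 184.6, 253.4 and 264.5 CPM in TCKO libraries 2, 3, 4 and 5, and 164.4, 200.7, 110.1 and 238.7 CPM in T libraries 2, 3, 4 and 5. It had 257.7, 250, 252.5 and 287.7 CPM in CKO libraries 1, 2, 4 and 5, and 344.3, 225.1, 247.1 and 433.5 CPM in WT libraries 1, 2, 4 and 5. WT 5 and WT 1 were the 2 highest of the 16 libraries and T 4 the lowest, and the highest T library exceeded the lowest WT library. Sst fell by 0.81 ± 0.22 on the log2 scale in T relative to WT (0.571-fold, 95% interval -1.27 to -0.34, edgeR adjusted p = 0.0132), lower in 3 of 4 T libraries than every WT library. The call was lost without WT 5 (-0.61 ± 0.21, adjusted p = 0.0575), without the choroid-rich T 4 and WT 1 (-0.57 ± 0.22, adjusted p = 0.0929) and in a fit of the 8 compared libraries only (-0.79 ± 0.26, adjusted p = 0.0594). Without WT 1 and WT 5 together, chosen after the values were seen, it was -0.36 ± 0.22 (adjusted p = 0.339). These 2 WT libraries also held the most Nr2f2, a factor of caudal-ganglionic interneurons and endothelium, at 79.45 and 96.31 CPM, against at most 50.79 CPM in the other 14. The endothelium list summed to 161.6 and 175.2 CPM in WT 1 and WT 5, and to 183.2 and 165.7 CPM in WT 2 and WT 4. The oligodendrocyte list summed to 4524 and 3291 CPM in WT 1 and WT 5, against 12540 and 14750 CPM in WT 2 and WT 4. It summed to 9412 to 20710 CPM in T, 4929 to 8316 CPM in CKO and 12540 to 16650 CPM in TCKO. The part of these levels in the Sst value was not tested.

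The remaining comparisons of Sst missed the threshold. TCKO against T was 0.33 ± 0.22 (95% interval -0.13 to 0.79, adjusted p = 0.346), CKO against WT -0.25 ± 0.22 (adjusted p = 0.695) and TCKO against CKO -0.22 ± 0.22 (adjusted p = 0.639). The interaction was 0.59 ± 0.31 (interval -0.07 to 1.24, adjusted p = 0.325). So a difference between the T against WT and TCKO against CKO values of Sst was not shown.

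Npy, the neuropeptide Y of many dendrite-targeting and neurogliaform cells, ranged over 73.54 to 126.1 CPM in TCKO, 65.94 to 108.6 in T, 89.53 to 148.3 in CKO and 65.31 to 125.4 in WT. Its fitted differences were -0.06 ± 0.21 for T against WT (adjusted p = 0.882) and 0.25 ± 0.21 for TCKO against T (adjusted p = 0.475), with 95% intervals of -0.51 to 0.39 and -0.20 to 0.70. Vip had 9.889, 3.644, 10.08 and 12.02 CPM in TCKO, against 15.28, 22.39, 8.253 and 18.83 CPM in T. It had 8.726 to 17.54 CPM in CKO and 6.02 to 24.25 CPM in WT, a 4.03-fold range within WT. TCKO against T gave -0.86 ± 0.42 (adjusted p = 0.19), and TCKO 3 with 3.644 CPM was the lowest of all libraries.

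Cck, the cholecystokinin gene, had 176.3, 111.3, 180.6 and 235.8 CPM in TCKO and 108.6, 134.3, 124.8 and 153.9 CPM in T. CKO libraries had 174.6, 179.3, 178.6 and 203.4 CPM, and WT libraries 137, 125, 186.7 and 189.1 CPM. All TCKO libraries but TCKO 3 lay above every T library. TCKO against T was 0.43 ± 0.19 (interval 0.04 to 0.82, adjusted p = 0.136). Without TCKO 3 it was 0.59 ± 0.16 and passed (adjusted p = 0.0219), so that library decides the call. T against WT was -0.29 ± 0.19 (adjusted p = 0.282) and CKO against WT 0.21 ± 0.19 (adjusted p = 0.71).

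Of the calcium-binding proteins, Pvalb had 43.24, 23.64, 45.04 and 48.73 CPM in TCKO, against 69.6, 55.99, 42.06 and 46.96 CPM in T. It ranged from 36.63 to 48.02 CPM in CKO and from 31.58 to 51.41 CPM in WT. Its values ran opposite in sign to those of Sst in T against WT and in TCKO against T, 0.36 ± 0.21 for T against WT (adjusted p = 0.231) and -0.42 ± 0.21 for TCKO against T (adjusted p = 0.199), and neither passed. T 2, the highest library for Pvalb, also held the most of the thalamus list, and without T 2 its values were 0.21 ± 0.21 for T against WT (adjusted p = 0.568) and -0.27 ± 0.21 for TCKO against T (adjusted p = 0.505). Reln, the secreted reelin, had 10.3 to 17.13 CPM in TCKO, 14.43 to 18.4 in T, 13.15 to 25.65 in CKO and 14.21 to 24.61 in WT. It differed most in TCKO against CKO, by -0.40 ± 0.22 (adjusted p = 0.355).

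Calb2, which encodes calretinin, had the widest spread of the 10. It had 19.17, 153.7, 133.7 and 12.52 CPM in TCKO libraries 2, 3, 4 and 5, and 19.9, 15.65, 28.76 and 60.32 CPM in T libraries 2, 3, 4 and 5. It had 13.72, 18.75, 19.39 and 35.6 CPM in CKO libraries 1, 2, 4 and 5, and 118.5, 146.3, 25.6 and 170.4 CPM in WT libraries 1, 2, 4 and 5. Thus 5 libraries, 2 of TCKO and 3 of WT, had 118.5 CPM or more and the other 11 had 12.52 to 60.32 CPM. Within TCKO the highest library was 12.3 times the lowest, and within WT 6.66 times.

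Fitted Calb2 differences were large with large errors: -1.89 ± 0.71 for T against WT (adjusted p = 0.0635), -2.39 ± 0.73 for CKO against WT (unadjusted p = 0.00444, adjusted p = 0.311), 1.36 ± 0.70 for TCKO against T (adjusted p = 0.22) and 1.87 ± 0.72 for TCKO against CKO (adjusted p = 0.191). The interaction was 3.75 ± 1.01 (interval 1.62 to 5.88, adjusted p = 0.0537). None passed, though T against WT passed without WT 4 (-2.22 ± 0.68, adjusted p = 0.0293), without T 5 (-2.43 ± 0.78, adjusted p = 0.0305), without TCKO 2 (adjusted p = 0.0488) or without TCKO 5 (adjusted p = 0.0378). Leaving out any one of the same 4 libraries also brought the interaction past the threshold, at log2 4.08 to 4.29 and adjusted p = 0.0244 to 0.0317. Drd2, a dopamine receptor gene used as a marker of hilar mossy cells and chosen here after its values were seen, had 8.238, 3.967 and 4.745 CPM in TCKO 3, TCKO 4 and WT 2, against at most 1.638 CPM elsewhere. Libraries with that low Drd2 level included WT 1 and WT 5, which had 118.5 and 170.4 CPM of Calb2. The whole list of mossy and granule cell genes summed to 199.7 CPM in TCKO 3, the lowest of TCKO, 349.5 CPM in TCKO 4, the highest of TCKO, and 283.2 CPM in WT 2, within the range of the other WT libraries. A list of 6 striatum genes without Drd2 summed to 125.9 CPM in TCKO 3, the highest of TCKO, 102.8 CPM in TCKO 4 and 117.8 CPM in WT 2, the highest of WT. The list summed to 89.53 to 183.5 CPM in CKO, where Drd2 was low, and to 76.3 to 99.45 CPM in T. The part of these levels in the Drd2 values and the Calb2 differences was not tested.

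**Figure D3:**
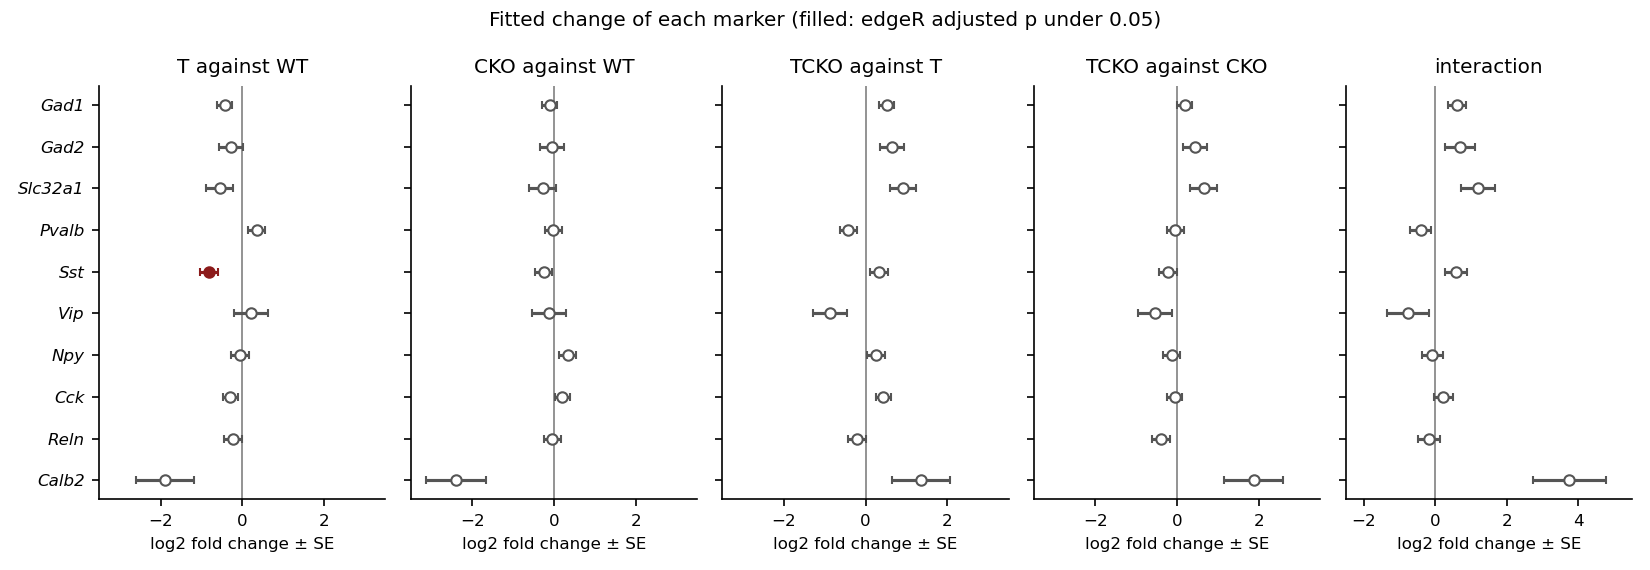
log2 fold change with its SE for each marker (rows) in each comparison (panels), from the edgeR fit over 16 libraries. The filled point, Sst in T against WT at -0.81, is the value past an adjusted p of 0.05, and the Calb2 bars are the longest in every panel.

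The median log2 difference of the 10 markers was -0.28 in T against WT, where the median of all genes tested was -0.01, and 8 of the 10 values were negative. It was 0.38 in TCKO against T (all genes 0.02), with 7 of 10 positive, and 0.41 in the interaction (all genes 0.03), with 6 of 10 positive. In CKO against WT the median was -0.08 (all genes -0.01), with 8 of 10 negative, and in TCKO against CKO -0.05 (all genes 0.01), with 6 of 10 negative.

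Beside the markers, 7 lists of related genes were examined, 87 genes tested in all, of which 4 were higher and 20 lower in T against WT. Over all genes tested, 13% were higher and 11.2% lower in T against WT, and 4.81% and 8.05% in TCKO against T. Each list count below stands beside these shares, and no list was tested against them. Among 11 interneuron transcription factors, 1 was higher and 0 lower in T against WT. Maf, a factor of medial-ganglionic interneurons that macrophages and microglia also transcribe, averaged 17.6 ± 2.87 CPM in T and 10.5 ± 1.52 CPM in WT (SD, n = 4 each; log2 0.74 ± 0.16, edgeR adjusted p = 0.00359). It averaged 9.28 ± 1.07 CPM in TCKO, lower than in T (-0.92 ± 0.16, adjusted p = 0.00126), and its interaction passed (-1.10 ± 0.23, adjusted p = 0.0172). The summed level of 6 microglial genes moved the same way, at 492.6 to 885.1 CPM in TCKO, 1254 to 1660 in T, 432 to 475.6 in CKO and 400.3 to 550.7 in WT, and its part in Maf was not tested. Lhx6, the factor that Sst and Pvalb cells keep into adulthood, gave -0.55 ± 0.26 in T against WT (adjusted p = 0.136).

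Among 20 other interneuron subtype genes, 0 were higher and 2 lower in T against WT. Crhbp, the CRH-binding protein found in many Sst cells, had 23.34, 47.49, 25.75 and 44.62 CPM in T, against 72.28, 58.66, 79.28 and 81.13 CPM in WT. The groups did not overlap and the log2 difference was -1.05 ± 0.25 (adjusted p = 0.00669). In TCKO it had 74.77, 37.89, 61.61 and 94.77 CPM and was higher than in T (0.93 ± 0.25, adjusted p = 0.0227). Leaving out T 2, T 4, TCKO 2 or TCKO 5 ended that second call (adjusted p = 0.0598 to 0.0926), as did leaving out T 4 with WT 1 (adjusted p = 0.0886). Tac1, the tachykinin precursor of substance P, had 6.209, 15.02, 6.205 and 8.367 CPM in T, against 22.63, 13.85, 16.38 and 33.72 CPM in WT. Its log2 difference was -1.28 ± 0.31 (adjusted p = 0.0068). Without WT 1 and WT 5 neither gene passed in T against WT (Crhbp -0.92 ± 0.31, adjusted p = 0.072; Tac1 -0.71 ± 0.32, adjusted p = 0.176). Without T 4 and WT 1 they were at adjusted p = 0.0501 and 0.0522. Cort, the cortistatin gene of some Sst cells, gave -1.29 ± 0.51 (adjusted p = 0.0767).

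Of 11 genes for GABA transport, breakdown, chloride balance and GABA-B receptors, 1 was higher and 0 lower in T against WT. It was Slc12a2, the chloride importer NKCC1, at 74.2 ± 32 CPM in T and 30.8 ± 10.4 CPM in WT (log2 1.27 ± 0.32, adjusted p = 0.00809). Without WT 1 and WT 5 its adjusted p was 0.064. Slc12a2 is also transcribed in choroid plexus and glia, and the oligodendrocyte list summed to 9412 to 20710 CPM in T and 3291 to 14750 CPM in WT, whose part was not tested. None of the 11 passed in TCKO against T (0 higher and 0 lower).

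Of 7 inhibitory postsynaptic genes, 0 were higher and 3 lower in T against WT. Gphn, the gephyrin scaffold that anchors GABA-A receptors, averaged 53.2 ± 2.26 CPM in T and 74.1 ± 6.24 CPM in WT (log2 -0.48 ± 0.10, adjusted p = 0.00242). Slitrk3, an adhesion protein of inhibitory synapses, fell by 0.66 ± 0.18 (adjusted p = 0.0117), but missed the threshold with the replicate block (-0.53 ± 0.19, adjusted p = 0.0743) and without WT 1 and WT 5 (adjusted p = 0.11). Of the 7, 2 were higher and 0 lower in TCKO against T. Gphn averaged 75.5 ± 10 CPM in TCKO, above T by 0.51 ± 0.10 (adjusted p = 0.00279). This call, and that of Gphn in T against WT, held under all 27 alternatives, some of which left the compared libraries as they were.

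Of 16 receptors for these peptides and reelin, 14 were tested, since Sstr5 and Cckar were removed by the filter, and 1 was higher and 5 lower in T against WT. The neuropeptide Y receptor genes Npy1r and Npy5r fell by 1.05 ± 0.21 (adjusted p = 0.00227) and 0.86 ± 0.20 (adjusted p = 0.00496). Npy1r averaged 17.2 ± 4.81 CPM in T and 35.5 ± 3.6 CPM in WT. Sstr4, a somatostatin receptor gene, averaged 2.92 ± 0.879 CPM in T and 6.42 ± 0.871 CPM in WT (-1.14 ± 0.28, adjusted p = 0.00829), a call lost without T 4 and WT 1 (adjusted p = 0.0706) and without WT 1 and WT 5 (adjusted p = 0.109). Of the 14, 2 were higher and 1 lower in TCKO against T. Npy5r was higher by 0.70 ± 0.20 (adjusted p = 0.0272), lost without any one of T 2, T 3, TCKO 2, TCKO 4 and TCKO 5 (adjusted p = 0.0511 to 0.103). Sstr4 was higher by 0.96 ± 0.29 (adjusted p = 0.0342), lost without any one of T 2, T 3, T 4, TCKO 2 and TCKO 5 (adjusted p = 0.0781 to 0.132), without T 4 and WT 1 (adjusted p = 0.12) and without WT 1 and WT 5 (adjusted p = 0.0545). Vipr2, a VIP and PACAP receptor gene, was lower by 2.88 ± 0.70 (adjusted p = 0.0122). It had 9.965 CPM in T 2, the thalamus-rich library, against 0.8317 to 1.717 CPM in the other T libraries, and without T 2 the value was -1.34 ± 0.45 (adjusted p = 0.0937).

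Of 10 peptide-processing genes, 1 was higher and 4 lower in T against WT. Scg3, a granin that astrocytes also release, averaged 379.8 ± 51.2 CPM in T and 216.8 ± 18.3 CPM in WT (0.81 ± 0.10, adjusted p = 3.02e-05). Scg5, the 7B2 chaperone of the convertase PC2, fell by 0.45 ± 0.10 (adjusted p = 0.00284), and Pcsk1, which encodes the convertase PC1/3, fell by 1.21 ± 0.34 (adjusted p = 0.0163). Pcsk1 missed the threshold without WT 5, T 2 or T 4 (adjusted p = 0.0693, 0.0521 and 0.0514) and was -0.88 ± 0.37 without T 4 and WT 1 (adjusted p = 0.129) and -0.41 ± 0.33 without WT 1 and WT 5 (adjusted p = 0.48). Scg5 was at adjusted p = 0.0516 without T 4 and WT 1 and 0.0775 without WT 1 and WT 5. Of the 10, 1 was higher and 1 lower in TCKO against T. Scg3 averaged 235.7 ± 18.7 CPM in TCKO and was lower than in T (-0.69 ± 0.10, adjusted p = 0.000276), with an interaction of -0.70 ± 0.14 (adjusted p = 0.0153). The summed level of 6 astrocyte genes was 2345 to 5172 CPM in TCKO, 7613 to 11010 in T, 1792 to 2060 in CKO and 2209 to 2787 in WT, and its part in Scg3 was not tested. Pcsk2, the gene of PC2, was higher in TCKO than in T by 0.62 ± 0.17 (adjusted p = 0.0204), a call lost without T 2, TCKO 2 or TCKO 5 (adjusted p = 0.0671 to 0.0807) and without T 4 and WT 1 (adjusted p = 0.0644).

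Excitatory and pan-neuronal genes moved beside these lists: 0 of 14 were higher and 6 lower in T against WT, and 5 were higher and 0 lower in TCKO against T. Their summed level was 10540 to 14800 CPM in TCKO, 6782 to 10950 in T, 12980 to 14100 in CKO and 11510 to 12890 in WT, so no T library reached the lowest WT library. Gria2, an AMPA receptor subunit gene, averaged 510 ± 143 CPM in T and 968.6 ± 52.9 CPM in WT (-0.93 ± 0.16, adjusted p = 0.000432), and 831.5 ± 87.8 CPM in TCKO (0.70 ± 0.15 against T, adjusted p = 0.00636). Tubb3 and Map2, which encode neuronal cytoskeletal proteins, fell by 0.55 ± 0.14 (adjusted p = 0.00757) and 0.47 ± 0.13 (adjusted p = 0.0166) in T against WT. Tubb3 was at adjusted p = 0.114 without T 4 and WT 1 and 0.271 without WT 1 and WT 5. Map2 missed the threshold when any one of WT 1, WT 5, T 2, T 3 and T 4 was left out (adjusted p = 0.0501 to 0.0679), and was -0.34 ± 0.16 without T 4 and WT 1 (adjusted p = 0.169) and -0.19 ± 0.14 without WT 1 and WT 5 (adjusted p = 0.44). The Map2 call was also lost in a fit of the 8 compared libraries only (-0.45 ± 0.16, edgeR adjusted p = 0.0689). In TCKO against T, Camk2a, the kinase of excitatory synapses, was higher by 0.74 ± 0.21 (adjusted p = 0.0271) and Nefl, a neurofilament gene, by 0.51 ± 0.14 (adjusted p = 0.0274). Leaving out T 2, T 3, TCKO 2 or TCKO 5 ended the Camk2a call, and those libraries or T 4 the Nefl call. The Nefl call was also lost without T 4 and WT 1 (adjusted p = 0.0833) and without WT 1 and WT 5 (adjusted p = 0.0551). The median log2 difference in T against WT, beside -0.01 over all genes tested, was -0.32 for the transcription factors, -0.33 for the subtype genes, -0.26 for GABA transport and breakdown, -0.28 for the postsynaptic genes, -0.79 for the receptors, -0.03 for peptide processing and -0.43 for the excitatory list. In the same order the medians in TCKO against T, beside 0.02 over all genes, were 0.29, 0.25, 0.13, 0.33, 0.42, 0.28 and 0.43. Whether the inhibitory lists differed from the excitatory list was not tested.

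**Figure D4:**
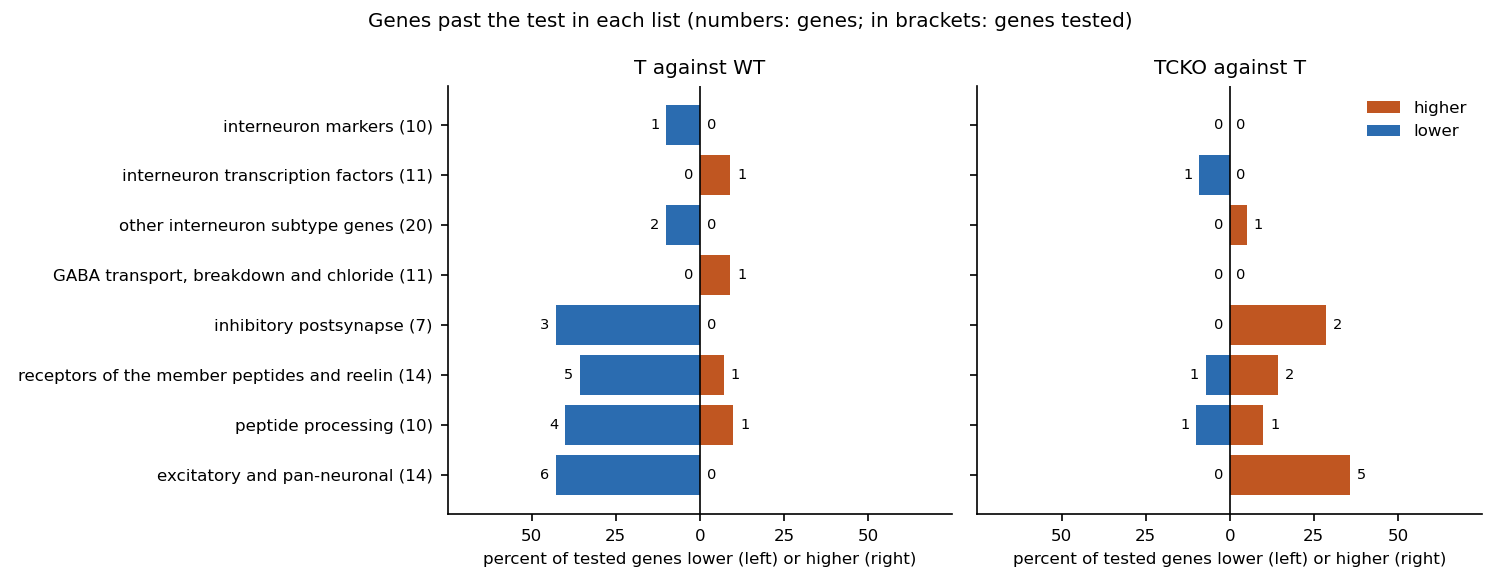
Percent of tested genes past the test in each list, lower to the left and higher to the right, for T against WT and TCKO against T, with the number of genes at each bar and genes tested in brackets. The excitatory list has 6 of 14 lower in T and 5 of 14 higher in TCKO, while the marker list has 1 of 10 and 0 of 10. Over all genes tested these shares are 11.2% and 4.81%.

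In CKO against WT, 0 of the 87 listed genes were higher and 0 lower by edgeR, against 0% and 0.0108% of all genes tested. At an unadjusted p under 0.05 there were 5, against 11.3% of all genes. In TCKO against CKO 0 were higher and 0 lower by edgeR, against 0.35% and 0.189%. At an unadjusted p under 0.05 there were 10, against 17.5%. In the interaction 0 were higher and 2, Maf and Scg3, were lower, against 0.695% and 2.45%. A fit of the 8 compared libraries only ended 8 of the TCKO against T calls above, those of Crhbp, Vipr2, Npy5r, Sstr4, Pcsk2, Gria2, Camk2a and Nefl (adjusted p = 0.0557 to 0.137). By limma voom the TCKO against T values of Vipr2 and Sstr4 were at adjusted p = 0.0951 and 0.0873.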

How the data were processed

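Per the labels' protocols, the 16 hippocampal libraries were primed with oligo-dT, using a SMARTer Ultra Low kit. The deposited values are estimated counts (expected counts) per gene, of which 74.53% of those above 0 were whole within 1e-09 reads. The deposited per-sample files also hold TPM, per the file headers. Their effective length, another column deposited by the authors, was not used. The submitters' processing notes list STAR 2.5.1a, Subread, featureCounts 1.4.6-p5, bcl2fastq and GRCm38. The quantifier and its annotation are not given in the sources used here. There were 55774 table lines for 55487 genes, and the 287 repeats were dropped. Every one of 887792 values equalled the per-sample files within 0.01 reads. Of 120 library pairs, the closest differed by a chi-square of 9.38 per degree of freedom, so none were merged.

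Counts were rounded and fitted with edgeR 4.0.16 in R 4.3.3 (TMM, filterByExpr, quasi-likelihood F-test, a mean per genotype over 16 libraries, Benjamini-Hochberg over 18565 genes, threshold 0.05). CPM were TMM scaled, with a prior count of 2 for log2 values. Intervals are 95%. The smallest totals give 3 reads a level of 0.199 CPM, and intervals and errors cover these libraries only. Alternatives used DESeq2 1.42.0, limma 3.58.1, other scalings, filters, the replicate block and fewer libraries. Deviations of same-numbered T and WT libraries had positive correlations (0.121, 0.137 and 0.304 for numbers 2, 4 and 5), so the block is given beside T against WT. Whether these correlations exceed those in the other comparisons was not tested. That pairing comes from the data, as the labels do not say what a number marks. Correlations used 100000 permutations over all 16 libraries, not restricted within genotype. Members and lists were chosen with earlier results of these data known. Named genes are all 10 markers and, from each other list, up to 3 past the threshold with the smallest p per comparison; any other named gene was chosen after its values were seen, and 1 gene under that rule is not reported here. Promoter sequence is from RefSeq on GRCm38.p6 and coordinates are from GENCODE M21.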

Additional observations from a re-analysis of the deposited data

Results flagged for a closer look

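In 3 of the 40 groups of 4 libraries (10 markers in 4 genotypes), 1 library lay far from the other 3. Chance gives about 1 in 20 such groups. Gad2, the GAD65 gene, had 288.7 CPM in TCKO 3, where the next TCKO library had 130.2 CPM. Slc32a1, the VGAT gene, had 9.965 CPM in WT 2, where the next WT library had 5.79 CPM. Cck had 203.4 CPM in CKO 5, where the next CKO library had 179.3 CPM. The rule is relative to the range, and this group was narrow, with 174.6 CPM in its lowest library.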

How the results depend on the processing

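Over 27 alternatives, 7 of 50 marker values (10 genes in 5 comparisons) crossed the threshold in at least 1, and none that passed changed sign. The sign of 19 values that did not pass changed in at least 1. Of 30 values of other listed genes, 17 crossed it. In T against WT, where 1 marker passed, the count was 2 with no filter on low counts (Calb2 added, adjusted p = 0.0425). Of all genes, 10.5% passed in that fit. The marker count was 2 with the replicate block (Gad1 added), where 18.4% of all genes passed. It was 0 without T 4 and WT 1, where 4.72% of all genes were lower, against 11.2% with every library, and 0 without WT 1 and WT 5, where 2.78% were lower. It ran from 0 to 2 when 1 library was left out, where 15.6% to 27.2% of all genes passed. In the 8-library fit the count stayed at 1, with Calb2 (adjusted p = 0.0439) in place of Sst, and 20.7% of all genes passed. In TCKO against T, where 0 passed, it was 1 with DESeq2 (Slc32a1), 1 with the replicate block (Gad1, 0.48 ± 0.11, adjusted p = 0.0133) and 1 without TCKO 3 and WT 2 (Cck, 0.55 ± 0.14, adjusted p = 0.0208), and ran from 0 to 1 when 1 library was left out. In the interaction, where 0 passed, Calb2 made the count 1 with DESeq2 (adjusted p = 0.0142) and 1 with no filter (adjusted p = 0.0162), and it ran from 0 to 1 when 1 library was left out. Of all genes, 6.73% and 1.76% passed in the first 2, and 1.58% to 6.71% when 1 library was left out. The causes were not tested. In CKO against WT and TCKO against CKO the marker count was 0 under every alternative run. Outside T against WT, correlations of same-numbered libraries ran from -0.142 to 0.272, with both signs in each comparison. In CKO against WT numbers 4 and 5 gave 0.173 and 0.272, and whether such values differ from those of T against WT was not tested. In TCKO against T the block also ended the Pcsk2 call (edgeR adjusted p = 0.0505). With TPM in place of CPM, 1 marker separated in CKO against WT (12.4% of all genes) and 1 in TCKO against T (15%). The 2 removals of TCKO 3 with WT 2 and of WT 1 with WT 5 were chosen after seeing the data. With 57 reads at the fewest, Slc32a1 is the value that depth limits most.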
